A study of Mus musculus with 4 samples.

Results

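The genes described here encode the nuclear subunits of 4 mitochondrial complexes: NADH dehydrogenase (complex I), the cytochrome bc1 complex (complex III), cytochrome c oxidase (complex IV) and ATP synthase (complex V). They were chosen by symbol from the deposited count table: Nduf followed by a, b, c, s or v and a digit, Uqcr, Cox followed by a subunit number with an optional letter and digit, or Atp5. Of 16360 symbols in the table, 73 met this rule: 35 in complex I, 8 in complex III, 13 in complex IV (Ndufa4, now counted as a cytochrome c oxidase subunit, is among these) and 17 in complex V. Complex II was left out of the rule. The symbols Atp5s and Atp5sl match the rule, but their products are not subunits of the enzyme. They stay in the counts and sums of complex V, where they make up 2 of the 17 genes. The rule passes over a few true subunits with other symbols (Ndufab1, Cyc1, Cox4i1, Usmg5 and others), which are given as a companion list.

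The respiratory chain passes electrons from NADH and succinate to oxygen and pumps protons out of the mitochondrial matrix on the way. ATP synthase lets the protons back through a ring of c subunits, whose rotation drives ATP formation in the catalytic F1 head. Macrophages can draw on this pathway or on glycolysis, and the chain is also a source of superoxide inside the cell, whereas EC-SOD, encoded by Sod3, removes superoxide outside it.

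RNA was sequenced from recruited alveolar macrophages, cells that monocytes entering the lung give rise to after injury, sorted by flow cytometry as CD64 high, SigF low and CD11b high. The groups were WT male mice and male mice labelled EC-SOD homozygous R213G, a change that releases the enzyme from the extracellular matrix. Mice of both genotypes were 8 to 10 weeks old, of the strain labelled "CD57/Bl6", and all had been dosed 7 days before with 100 µl of intratracheal bleomycin (1 U/ml), a drug that injures the lung. There were 2 libraries per genotype, 4 in all, and no untreated mice. Nothing in the labels tells whether a library stands for 1 mouse or for a pool. The p-values therefore cover the spread between libraries, which may be technical. The comparison asks whether macrophages recruited to the injured lung differ between mice whose EC-SOD is redistributed and WT mice.

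Total counts were 33488569 to 35176210 per library. Transcripts of the sort gate were present: Fcgr1 (CD64) stood at 243 to 261 CPM (counts per 1e6 of the TMM-scaled library size), Itgam (CD11b) at 721 to 886 CPM and Siglecf at 10.8 to 12.1 CPM. The summed level of 6 dendritic cell markers was 139 and 43.6 CPM in R213G replicates 1 and 2 and 151 and 39.8 CPM in WT replicates 1 and 2, so it differed within each genotype. For this sum and the neutrophil sums, CPM is per 1e6 of the unscaled library total. Neutrophil markers (5 in the table) summed to 139 and 157 CPM in R213G and to 184 and 181 CPM in WT. Their sum was lower in both R213G libraries. Csf3r among them had a log2 fold change of -0.50 ± 0.16 (unadjusted p 0.0110, edgeR adjusted p 1.0), Mmp8 -0.31 ± 0.15 and Cxcr2 -0.12 ± 1.56. S100a8 went the other way, with 19.7 and 12.2 CPM in R213G against 11.1 and 13.2 CPM in WT (0.39 ± 0.32). S100a9 was counted 31 and 0 times in R213G and 0 times in WT, too few to be tested. The part of dendritic cells and neutrophils in the results was not tested. The R213G replicate 1 library stood apart: it had the fewest genes detected (13584, against 14598 to 15194), 1689 CPM of Gm42418, a transcript that overlaps ribosomal RNA sequence (513 to 702 CPM in the other libraries), and 143 CPM of Lars2 (50.8 to 62.5). The counts of the main groups of subunits are given with and without this library.

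None of the 73 genes was called different between the genotypes. All 73 passed the low-count filter and were among the 13575 genes tested. By the edgeR quasi-likelihood test, 0 of 73 were called at a Benjamini-Hochberg adjusted p below 0.05 taken over all tested genes, where the share called was also 0%. At an unadjusted p under 0.05, 2 of the 73 were higher in R213G (Cox6c and Ndufb7) and 0 were lower. Over all tested genes 0.936% (127 genes) were higher and 1.29% (175 genes) were lower at that level. Log2 fold changes (R213G minus WT) of the 73 ran from -0.35 to 0.90 with a median of 0.069, beside a median of -0.0056 over all tested genes. They were above 0 for 46 of 73 (63.0%), against 49.1% of all tested genes. Both R213G libraries lay above both WT libraries for 15 members (20.5%), beside 13.7% of all tested genes, and below both for 7 members (9.59%), beside 15.2%.

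**Figure D1:**
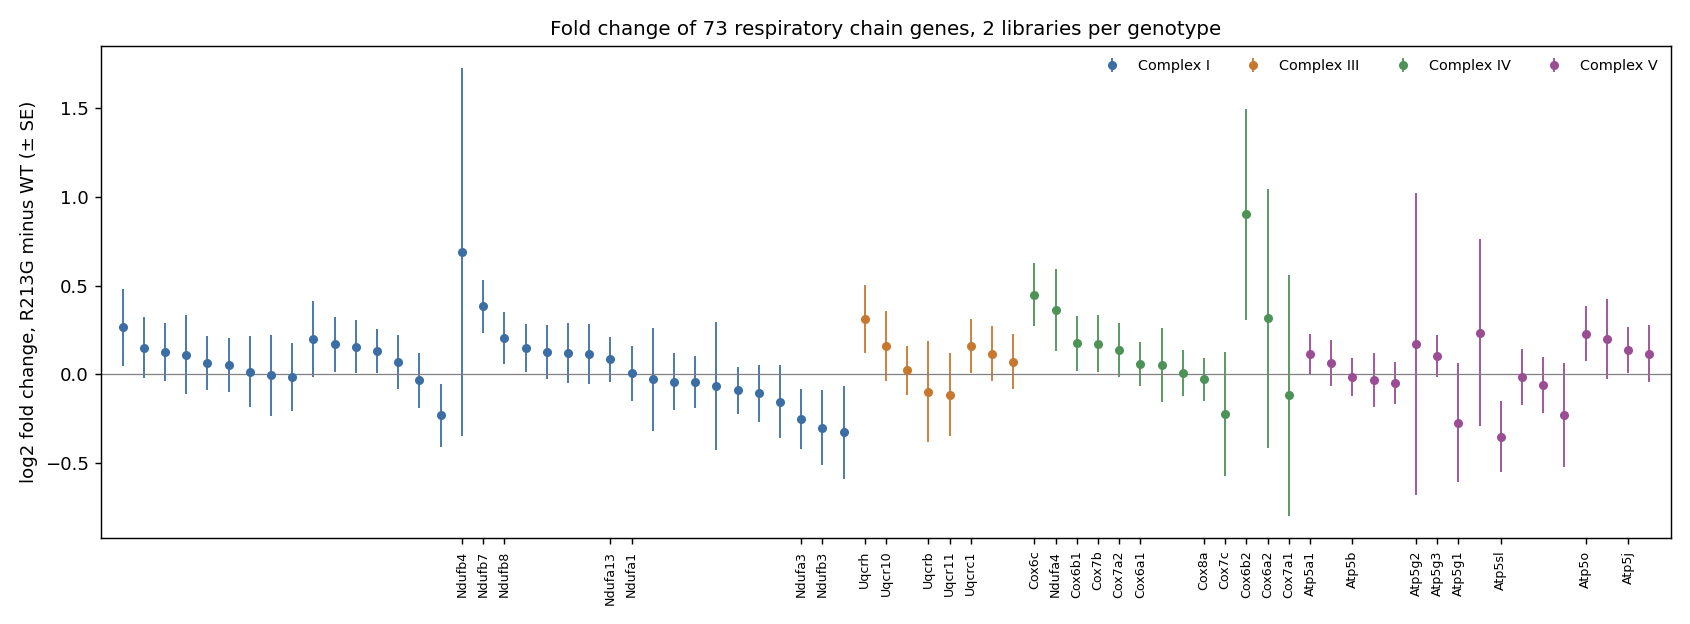
Log2 fold change (R213G minus WT, vertical axis) of each of the 73 genes, grouped by complex (colour), with bars of 1 SE from the edgeR fit and symbols under the genes named by rule and Ndufb4. Of the 73 points, those of Cox6c and Ndufb7 lie more than 2 SE from 0, and the widest bars belong to genes of few counts such as Ndufb4, Atp5g2 and the tissue-restricted forms of complex IV.

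Taken over all 73 members, the upward lean rested on 1 library. R213G replicate 1 was the highest of the 4 libraries for 40 of 73 members (54.8%), against 31.2% of all tested genes, whereas R213G replicate 2 was the highest for 5, WT replicate 1 for 15 and WT replicate 2 for 13. R213G replicate 1 exceeded R213G replicate 2 in 55 of 73 members (75.3%), against 47.3% of all tested genes. The median deviation of a member from its mean log2 CPM over the 4 libraries was 0.10 in R213G replicate 1, -0.051 in R213G replicate 2, -0.025 in WT replicate 1 and -0.024 in WT replicate 2. Without R213G replicate 1 the median log2 fold change was -0.026 and 29 of 73 members were above 0. Without any other single library it was 0.074 to 0.11, with 45 to 53 members above 0. The median coefficient of variation between the 2 libraries of a genotype was 10.8% in R213G and 5.99% in WT for the members, beside 15.7% and 11.7% over all tested genes. Of the 73 members, 21 changed sign without R213G replicate 1. The share of all tested genes above 0 without that library is not given here.

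**Figure D2:**
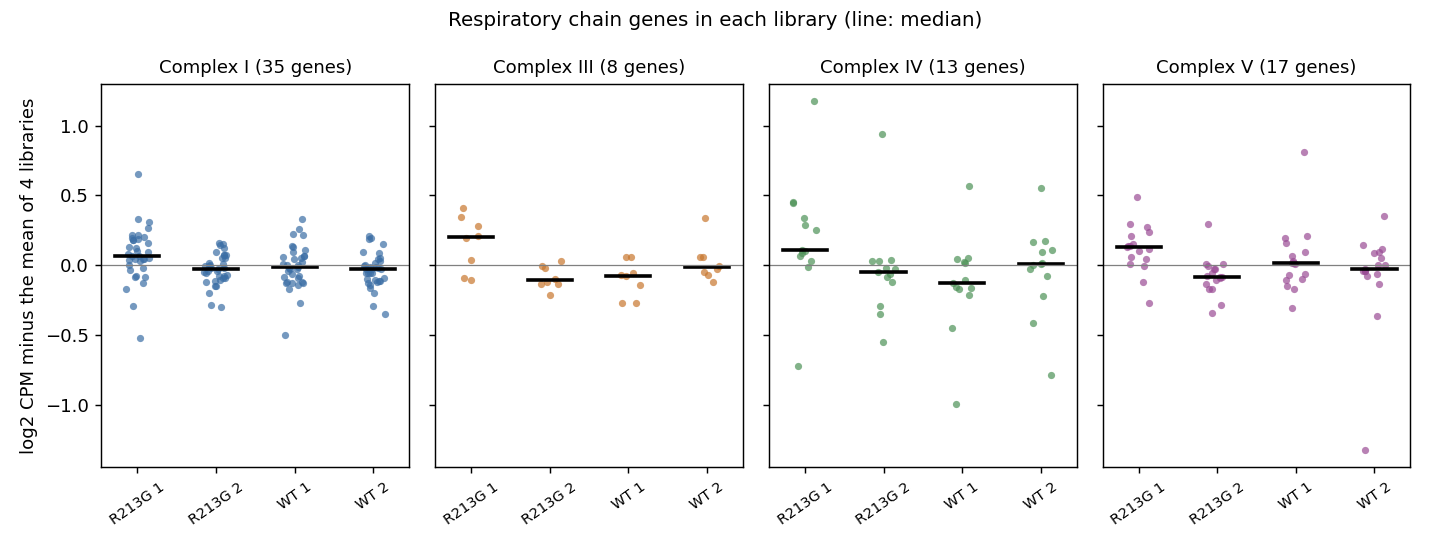
Each point is 1 gene: its log2 CPM in a library minus its mean over the 4 libraries (vertical axis), for complexes I, III, IV and V (panels), with the median as a black line. In every panel the median of R213G replicate 1 lies above those of the other libraries, with 0.069 for complex I, 0.20 for complex III, 0.11 for complex IV and 0.13 for complex V.

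Genes with ribosomal protein symbols were also high in that library, and short genes to a lesser degree. The cytosolic set held 94 tested genes whose symbol was Rpl or Rps followed by a digit, a, p or x. This symbol rule also admits genes that encode no ribosomal protein, such as S6 kinases (Rps6k symbols), which were not taken out. R213G replicate 1 was the highest library for 62 of the 94 (66.0%), and for 43 of 77 mitochondrial ribosomal protein genes (55.8%). The median log2 fold changes of these sets were 0.087 and 0.10. Of the 1185 tested genes whose longest transcript was under 1000 bases, it was the highest for 38.1%, with a median log2 fold change of 0.035. The part that transcript length, Gm42418 or the number of detected genes had in the pattern was not tested.

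Summed over each complex, the same library stood out. The 35 genes of complex I summed to 1821 and 1714 CPM in R213G replicates 1 and 2 and to 1707 and 1694 CPM in WT replicates 1 and 2. Complex III summed to 678, 535, 540 and 571 CPM in the same order, and complex IV to 937, 812, 788 and 829 CPM. Complex V, which held the 2 most abundant members, summed to 2714, 2466, 2507 and 2504 CPM. In complexes III and V the sum of R213G replicate 2 lay below both WT sums, while that of R213G replicate 1 lay above them, so the genotypes overlapped there. In complex IV the sum of R213G replicate 2 lay between the WT sums, so the genotypes overlapped there too. In complex I both R213G sums lay above both WT sums. In complexes I and IV the sum of R213G replicate 2 lay within 20 CPM of a WT library.

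**Figure D3:**
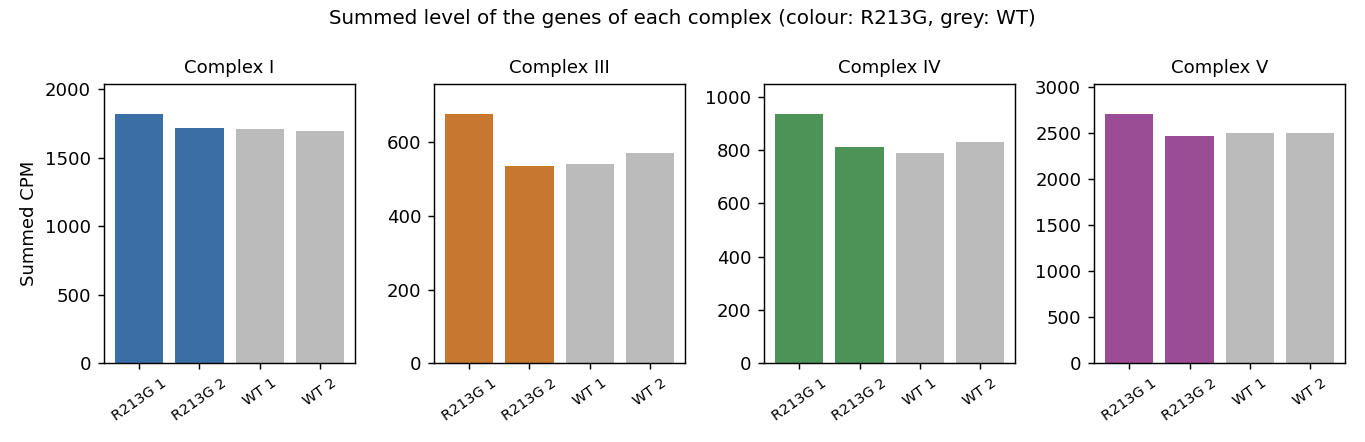
Summed CPM (vertical axis, from 0) of the genes of each complex in each library, R213G in colour and WT in grey. The first bar of each panel, R213G replicate 1, is the tallest, and the other 3 bars of a panel are close to each other.

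Complex I takes electrons from NADH in a matrix arm of core subunits that carry flavin and iron-sulfur clusters, and accessory subunits surround the core and the membrane arm. Of its 7 nuclear core subunits, 5 had a log2 fold change above 0, with a median of 0.13, and 5 with a median of 0.054 without R213G replicate 1. Their summed level was highest in R213G replicate 2, with 475 and 482 CPM in R213G and 447 and 462 CPM in WT. Ndufs8, which carries iron-sulfur clusters, had 71.8 and 60.6 CPM in R213G and 60.4 and 57.4 CPM in WT (log2 fold change 0.17 ± 0.15, SE, unadjusted p 0.297). The NADH-binding subunit Ndufv1 had 70.2 and 61.0 CPM against 56.9 and 60.8 CPM (0.16 ± 0.15). In both, the R213G libraries lay above the WT libraries. Ndufs7, an iron-sulfur subunit next to the quinone, had the lowest value of the core at -0.23 ± 0.18. None of these differences exceeded 2 SE, and without R213G replicate 1 the 3 values were 0.041, 0.054 and -0.067.

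Among the 9 accessory subunits of the matrix arm 7 were above 0, and among the 19 of the membrane arm 9 were above 0, with medians of 0.065 and -0.029. Without R213G replicate 1 these counts were 5 and 7, with medians of 0.0033 and -0.051. Ndufb7, a membrane-arm subunit on the intermembrane-space side, had the smallest p of complex I. It stood at 90.8 and 77.1 CPM in R213G and at 60.7 and 67.9 CPM in WT. Both R213G libraries were higher, and the log2 fold change was 0.38 ± 0.15 (unadjusted p 0.0293, edgeR adjusted p 1.0). Ndufb8, another subunit of the distal membrane arm, had 83.4 and 70.9 CPM against 67.4 and 66.3 CPM, a log2 fold change of 0.21 ± 0.15 (0.085 without R213G replicate 1). In the other direction, Ndufa3 had 40.9 and 41.2 CPM in R213G and 53.4 and 44.4 CPM in WT (-0.25 ± 0.17), and Ndufb3 had 24.8 and 20.6 CPM against 26.8 and 29.2 CPM (-0.30 ± 0.21). The WT libraries were the higher for these 2 accessory subunits, though neither passed an unadjusted p under 0.05.

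The complex I members of highest level per kb of exon were Ndufa1 and Ndufa13, and per kb of coding transcript Ndufa3 and Ndufb7, described above. Ndufa1, the X-linked subunit needed for membrane-arm assembly, had 110 CPM per kb of exon and 45.1 to 46.8 CPM in the 4 libraries. Ndufa13, also known as Grim19, had 104 and 100.4 CPM in R213G and 97.4 and 95.8 CPM in WT, a log2 fold change of 0.084 ± 0.13.

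Complex III passes electrons from ubiquinol to cytochrome c. Its 3 core members had log2 fold changes above 0, but without R213G replicate 1 all 3 lay below it. Uqcrc1, a core scaffold protein, had 235 and 176 CPM in R213G and 175 and 193 CPM in WT (0.16 ± 0.15), with R213G replicate 1 alone above the WT range, and -0.060 without that library. The Rieske iron-sulfur protein Uqcrfs1 had 78.6 and 63.5 CPM against 65.5 and 65.7 CPM (0.12 ± 0.15, and -0.045 without R213G replicate 1). Of the 5 accessory members 3 were above 0, and 1 without that library. The hinge protein Uqcrh, which helps cytochrome c dock, had 91.7 and 63.4 CPM against 57.1 and 67.7 CPM (0.31 ± 0.19, unadjusted p 0.136), and 0.024 without R213G replicate 1. Uqcr10 had 61.1 and 41.5 CPM against 45.9 and 45.9 CPM (0.16 ± 0.20), and -0.14 without R213G replicate 1. Uqcr11 (-0.11 ± 0.24) and Uqcrb (-0.097 ± 0.28) lay on the other side of 0. Only Uqcr11 had genotypes that did not overlap, lower in R213G.

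Complex IV hands electrons to oxygen, and its nuclear subunits surround a core made from mitochondrial DNA. Of its 10 common subunits 8 had log2 fold changes above 0, with a median of 0.097. Without R213G replicate 1, 4 of 10 were above 0 and the median was -0.0039. Cox6c had 87.3 and 63.1 CPM in R213G and 55.2 and 54.8 CPM in WT. Both R213G libraries were above WT, and the log2 fold change was 0.45 ± 0.18 (unadjusted p 0.0308, edgeR adjusted p 1.0). R213G replicate 1 lay farthest from WT, and without it the value was 0.20. For Ndufb7 it was 0.26. Cox6c and Ndufb7 were the only members under an unadjusted p of 0.05 in the main fit and under each other normalization, filter, tool and the replicate block. This did not hold in the fits that left out 1 library. In those fits the log2 fold change ran from 0.20 to 0.66 for Cox6c and from 0.26 to 0.49 for Ndufb7.

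The remaining common subunits were closer between the genotypes. Ndufa4 had 34.2 and 27.5 CPM against 27.8 and 20.3 CPM (0.36 ± 0.23), so that R213G replicate 2 and WT replicate 1 were alike. The 2 subunits of highest level per length in this complex, Cox8a and Cox6b1, stood at 238 and 208 CPM per kb of exon. Cox8a had 150.3 and 141 CPM in R213G and 149 and 148 CPM in WT (-0.029 ± 0.12). Cox6b1 had 178 and 134 CPM against 130 and 146 CPM (0.17 ± 0.16), and -0.043 without R213G replicate 1. Cox7c had 8.38 and 6.52 CPM against 8.32 and 9.06 CPM (-0.22 ± 0.35).

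Several complex IV subunits exist in a common and a tissue-restricted form, and the macrophages carried mainly the common ones. Per kb of exon, Cox6a1 was 29.6 to 108 times as abundant as Cox6a2, the heart and skeletal muscle form, over the 4 libraries. Cox7a2 was 9.20 to 21.1 times as abundant as Cox7a1, also a muscle form. Cox6b1 was 24.2 to 80.8 times as abundant as the testis form Cox6b2. With the length of the coding transcript in place of the exonic length, the last ratio was 9.78 to 32.6. Counts of the restricted forms differed from library to library. Counts of Cox6b2 were 393 and 138 (R213G) against 83 and 195 (WT), a log2 fold change of 0.90 ± 0.59 that was -0.055 without R213G replicate 1. Cox8b, Cox8c, Cox7b2, Ndufa4l2 and Uqcrhl had no row among the deposited counts under the symbols searched. The same held for the complex I subunit Ndufb1.

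ATP synthase held the most abundant messages. Atp5b, the catalytic beta subunit, stood at 731 and 731 CPM in R213G and 742 and 735 CPM in WT. Its highest library was 1.02 times its lowest, the narrowest spread of the 59 members with a mean of at least 20 CPM, whose median was 1.23 and whose widest was 1.69 for Ndufa4. The log2 fold change of Atp5b was -0.015 ± 0.11. The alpha subunit Atp5a1 had 761 and 677 CPM in R213G and 659 and 671 CPM in WT (0.11 ± 0.11). Of the 5 genes of the F1 head and its central stalk 2 were above 0, with a median of -0.015, and 1 of 5 with a median of -0.064 without R213G replicate 1.

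The peripheral stalk, which holds the head against rotation, had all 4 genes above 0 with a median of 0.17, and R213G replicate 1 was the highest library for each of them. Without that library 3 of 4 were above 0, with a median of 0.046, and Atp5f1 was at -0.12. Atp5o, also called OSCP, had 124 and 95.8 CPM in R213G and 89.7 and 98.1 CPM in WT (0.23 ± 0.15, and 0.030 without that library). Atp5j (coupling factor 6) had 101 and 92.9 CPM against 88.6 and 87.8 CPM (0.14 ± 0.13), and was the only gene of the stalk whose genotypes did not overlap. The 3 small membrane subunits Atp5j2, Atp5k and Atp5l lay below 0, between -0.23 and -0.017, and the genotypes overlapped for each. Without R213G replicate 1 or WT replicate 1, 0 of 3 were above 0. Without R213G replicate 2 or WT replicate 2, 2 of 3 were above 0. Atp5sl, whose product is linked to complex I assembly rather than to ATP synthase, had 22.1 and 25.3 CPM in R213G and 30.9 and 29.6 CPM in WT (-0.35 ± 0.20, unadjusted p 0.11). It had the lowest fold change of the 73. Atp5s, the other gene that is no subunit, had 5.10 and 2.96 CPM against 4.06 and 2.80 CPM (0.23 ± 0.53, and -0.21 without R213G replicate 1).

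The c subunit of the ring is encoded by 3 genes whose mature proteins are alike and whose presequences differ. The last 234 coding bases, over which the 3 genes code for the same residues, are shown because they include the mature subunit (GENCODE vM21, GRCm38). Capitals mark bases that differ from Atp5g3.
Atp5g3: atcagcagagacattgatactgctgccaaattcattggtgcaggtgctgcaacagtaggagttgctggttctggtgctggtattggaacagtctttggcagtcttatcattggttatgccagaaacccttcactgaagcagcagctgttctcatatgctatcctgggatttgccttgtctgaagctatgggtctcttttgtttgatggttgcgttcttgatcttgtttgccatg
Atp5g1: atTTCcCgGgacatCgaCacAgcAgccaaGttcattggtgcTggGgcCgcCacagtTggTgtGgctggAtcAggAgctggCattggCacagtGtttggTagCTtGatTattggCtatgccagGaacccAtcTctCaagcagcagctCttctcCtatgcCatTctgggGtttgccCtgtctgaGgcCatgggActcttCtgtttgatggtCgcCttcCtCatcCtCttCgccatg
Atp5g2: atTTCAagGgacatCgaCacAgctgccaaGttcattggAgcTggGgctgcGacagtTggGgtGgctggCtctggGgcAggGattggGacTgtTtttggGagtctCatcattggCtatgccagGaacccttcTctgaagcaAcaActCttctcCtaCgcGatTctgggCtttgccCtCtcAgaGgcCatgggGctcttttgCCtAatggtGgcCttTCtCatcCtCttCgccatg

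Atp5g1 differed from Atp5g3 at 50 of these 234 bases and Atp5g2 at 53, and all 78 codons gave the same residue in the 3 genes. The 3 messages thus differ in sequence while coding for 1 mature subunit. Almost all c-ring message was counted on Atp5g3 (chromosome 2, 73908447 to 73911326, minus strand), with 190 and 178 CPM in R213G and 164 and 177 CPM in WT (0.10 ± 0.12). Atp5g1 (chromosome 11, 96068852 to 96075670, minus strand) had 9.46 and 7.16 CPM against 10.4 and 9.67 CPM (-0.27 ± 0.33). Atp5g2 (chromosome 15, 102662864 to 102672352, minus strand) was counted 47 and 51 times in R213G, against 70 and 15 times in WT (0.17 ± 0.85). Of these 3 genes 2 were above 0, with a median of 0.10, and 2 with a median of 0.059 without R213G replicate 1. Per kb of exon Atp5g3 stood 35.7 to 56.0 times above Atp5g1 over the 4 libraries, and per kb of coding transcript 103 to 162 times. These ratios depend on the length chosen. The exonic length was 4912 bases for Atp5g1 and 2181 for Atp5g3, and the coding transcript 4715 and 723 bases. Atp5g1 and Atp5g2 were also among the genes whose coding sequence recurs elsewhere in the genome.

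Processed pseudogenes, copies of a message written back into the genome, are common for these subunits, and the members whose coding words nearly all recur elsewhere had low counts. Each coding sequence was cut into overlapping words of 50 bases, and each word was looked up in the GENCODE vM21 transcripts of other genes. Genes that overlap the member in the genome were left out of this search. No word recurred for 40 of the 73 members, under 50% of words for 21, 50% to under 99% for 7 and at least 99% for 5. These 5 were Atp5g1, Atp5g2, Atp5l, Cox7c and Ndufb4. Their median level was 1.87 CPM per kb of exon (0.294 to 7.14), against 38.0 (1.83 to 238) for the 40 members without a shared word. Without division by length the medians were 8.07 and 57.3 CPM.

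**Figure D4:**
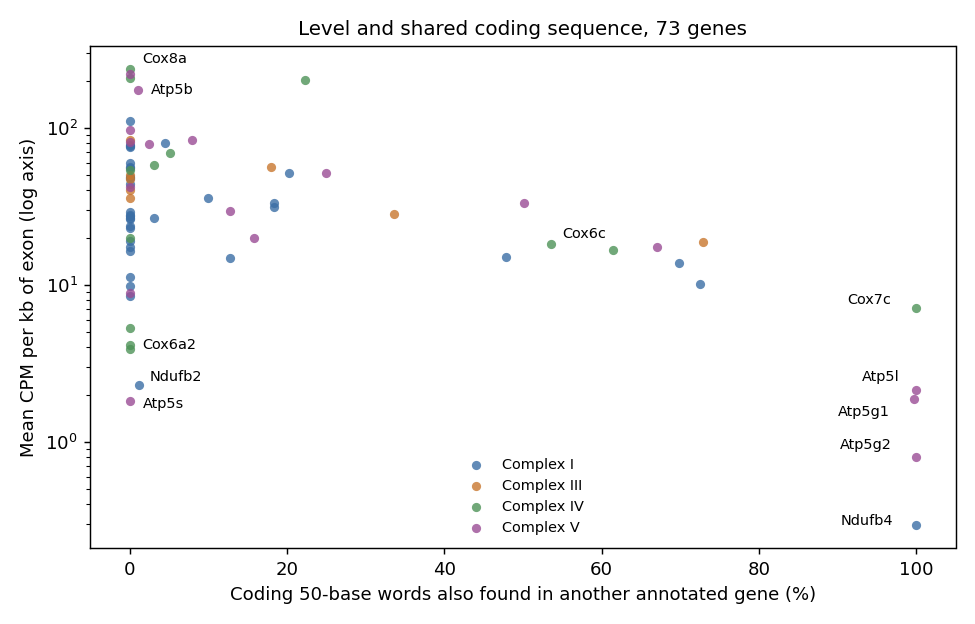
Mean level over the 4 libraries (CPM per kb of exon, log axis) against the percent of coding words of 50 bases also found in another annotated gene, 1 point per member, coloured by complex. The 5 genes at the right edge lie at 7.14 CPM per kb or lower, where 4 of the 40 members without a shared word (Atp5s, Cox6a2, Cox7a1 and Cox6b2) and Ndufb2 also lie, and Atp5g2 and Ndufb4 lie below every other member.

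Cox7c (chromosome 13, 86044816 to 86046904, minus strand) is shown as the clearest case, since its 189 coding bases are held letter for letter by the processed pseudogene Gm12338 on chromosome 11. Cox6c (chromosome 15, 35925886 to 35938246, minus strand) is shown because it had the largest log2 fold change of the common complex IV subunits. Capitals mark bases in runs of 50 or more held by the closest other gene, for Cox6c the processed pseudogene Cox6c2 on chromosome 12.
Cox7c: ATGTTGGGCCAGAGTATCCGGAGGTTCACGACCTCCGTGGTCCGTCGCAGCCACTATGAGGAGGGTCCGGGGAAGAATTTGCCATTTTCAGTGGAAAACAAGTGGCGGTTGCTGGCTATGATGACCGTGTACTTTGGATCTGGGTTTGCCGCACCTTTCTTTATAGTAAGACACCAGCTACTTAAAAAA
Cox6c: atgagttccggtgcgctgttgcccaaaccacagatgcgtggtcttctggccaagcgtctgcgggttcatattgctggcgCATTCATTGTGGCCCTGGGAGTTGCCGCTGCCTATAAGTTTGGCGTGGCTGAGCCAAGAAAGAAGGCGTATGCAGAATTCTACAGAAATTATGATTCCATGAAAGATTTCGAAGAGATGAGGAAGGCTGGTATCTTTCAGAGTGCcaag

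In Cox7c all 189 bases are in capitals, and in Cox6c 145 of 228. Ndufb4, whose 387 coding bases lie whole in Ndufb4c, was counted 30 and 18 times in R213G against 12 and 17 times in WT, the lowest of the 73. Atp5l shares words with 13 other genes, 12 of them pseudogenes, and had 427 and 446 counts against 405 and 597. Cytochrome c itself showed the same coincidence: the coding sequence of Cycs lies whole in Gm10053, and its counts were 28 and 48 (R213G) against 63 and 51 (WT). How reads that map to several places were treated is not given in the sources used here, and its part in these low counts was not tested. The levels of these genes are therefore uncertain, and their fold changes compare only the reads that were assigned to them.

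The genes that share no word with another gene gave nearly the same comparison: 26 of 40 had a log2 fold change above 0, with a median of 0.087. With the 59 members of at least 20 CPM, 41 were above 0, with a median of 0.084. R213G replicate 1 was the highest library for 25 of the 40 (62.5%) and 37 of the 59 (62.7%), beside 54.8% of all members. The values of these subsets without that library were not computed. Both subsets were chosen after seeing the data.

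Nuclear genes of the chain are known to share promoter sites for the factors NRF1, GABP and YY1, and the windows from 250 bases before to 50 bases after each RefSeq start (GRCm38.p6) were searched on both strands. A window was found for 63 of the 73 members. The NRF1 letters GCGCATGC were in 9 of the 63 (14.3%), against 5.98% of the 9755 tested genes with a window and 3.05% of all genes with one. The YY1 letters AAGATGGCG were in 8 (12.7%), against 3.69% and 1.64%, and the GABP letters CCGGAAG in 14 (22.2%), against 20.5% and 9.93%. At least 1 of the 3 was in 26 (41.3%), against 27.6% and 13.6%. These are counts of letters, and no binding was measured.

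In 7 of the 8 members that held them, the ATG inside the letters was the annotated start codon. In the first windows of those 7 genes the letters began 22 to 35 bases past the annotated start of transcription. How often they lie at the start codon in other genes was not computed. The windows of the 5 with full flanks are shown, with the YY1 letters in capitals, so that the start codon can be read within them.
Atp5j2: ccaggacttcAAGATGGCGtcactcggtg
Atp5sl: gttacctggcAAGATGGCGgcgcccagag
Ndufa9: attgtgggagAAGATGGCGgccgccgtcc
Ndufc1: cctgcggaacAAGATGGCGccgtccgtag
Ndufs7: ggccgaggccAAGATGGCGgcgctggcgg

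They lie at chr5:145191500-145191528 (minus strand) for Atp5j2, chr7:25619430-25619458 (plus strand) for Atp5sl, chr6:126849097-126849125 (minus strand) for Ndufa9, chr3:51408915-51408943 (minus strand) for Ndufc1 and chr10:80249463-80249491 (plus strand) for Ndufs7. The log2 fold changes of these 5 genes ran from -0.35 for Atp5sl to 0.053 for Ndufa9, and Ndufc1 had 15.1 and 24.2 CPM in R213G against 25.2 and 24.1 CPM in WT. The NRF1 letters read on both strands, overlapping by 6 bases, in 5 members. The pair of highest level among them per kb of exon is shown, with the overlapping letters in capitals.
Cox6a1: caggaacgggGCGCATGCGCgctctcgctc
Atp5k: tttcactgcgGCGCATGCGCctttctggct

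These lie at chr5:115349101-115349130 (minus strand) and chr5:108434430-108434459 (minus strand). Yy1 itself had 96.1 and 115 CPM in R213G and 128 and 110 CPM in WT (-0.17 ± 0.15), Nrf1 27.2 and 31.4 CPM against 34.0 and 28.1 CPM (-0.084 ± 0.20), and Gabpa 51.8 and 50.4 CPM against 59.9 and 49.0 CPM (-0.090 ± 0.16). For all 3 factors the genotypes overlapped.

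The other genes of the pathway, in 6 lists, gave 0 called genes in either direction by the same edgeR test. Among 80 tested genes of these lists 1 was higher at an unadjusted p under 0.05, Etfdh, and 0 were lower. Etfdh passes electrons from fatty acid and amino acid oxidation to ubiquinone. It had 59.7 and 48.3 CPM in R213G and 35.3 and 44.1 CPM in WT, with both R213G libraries above WT (0.44 ± 0.19, unadjusted p 0.0397). The other 6 genes of cytochrome c and electron entry ran from -0.62 for Cycs to 0.27 for Dhodh, and the median of the list was 0.0034. The 4 genes of complex II (succinate dehydrogenase), which feeds electrons from the citrate cycle, were all above 0 with a median of 0.092. Of these, Sdha had 303 and 302 CPM in R213G and 297 and 276 CPM in WT. The 7 tested subunits outside the symbol rule had 4 above 0 and a median of 0.056, and among them Cox7a2l had 98.8 and 71.4 CPM against 78.9 and 62.9 CPM (0.26 ± 0.19). Without R213G replicate 1 these 3 lists had 2 of 7, 3 of 4 and 2 of 7 genes above 0, in the order given.

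Of 13 mitochondrially encoded subunits listed, 8 had deposited counts, none of them of complex V, and 7 were tested. The 7 tested, which assemble with the nuclear ones, had 3 above 0 and a median of -0.027. Without R213G replicate 1, 4 were above 0, with a median of 0.0065. The summed level of these 7 was highest in WT replicate 2, with 15425 and 16117 CPM in R213G and 15168 and 16850 CPM in WT. Of the 43 assembly factors 21 were above 0 and the median was -0.0061, and 19 with a median of -0.071 without R213G replicate 1. Ttc19, which serves complex III, had counts of 48 and 191 against 290 and 198 (-1.06 ± 0.57, unadjusted p 0.0912), with R213G replicate 1 far below the rest, and -0.40 without it. Ecsit, an assembly factor of complex I that also acts in Toll-like receptor signalling, had 9.84 and 16.2 CPM against 18.0 and 18.3 CPM (-0.48 ± 0.30, and -0.17 without R213G replicate 1). Of the 12 regulators of respiratory gene transcription 4 were above 0, with a median of -0.087, and 5 with a median of -0.076 without R213G replicate 1. Polrmt, the mitochondrial RNA polymerase, had 18.3 and 28.6 CPM against 38.0 and 27.1 CPM (-0.47 ± 0.27), and the PGC-1 related coactivator Pprc1 had 67.2 and 81.0 CPM against 95.6 and 80.8 CPM (-0.25 ± 0.16). In both, R213G replicate 1 was the lowest library and WT replicate 1 the highest. Without R213G replicate 1 they were at -0.18 and -0.12.

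With 2 libraries per genotype the smallest two-sided p of an exact permutation test is 0.333, so single genes rest on the edgeR fit, which borrows the spread of other genes and had 2 residual degrees of freedom. The median SE of a member's log2 fold change was 0.16, and a missed threshold does not show that a gene was equal in both genotypes.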

How the data were processed

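Sorted recruited alveolar macrophages from 2 WT and 2 R213G libraries were sequenced as directional poly(A) RNA, per the labels' protocols. The authors deposited raw counts, 1 row per symbol. Per the submitters' processing notes, they used STAR 2.5.1b, featureCounts and Subread 1.4.4 with GRCm38. Annotation, strand setting and treatment of multi-mapping reads: not given in the sources used here. Counts of genes with copies or overlapping neighbours are therefore uncertain.

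Counts were tested with the edgeR 4.0.16 quasi-likelihood test (legacy = FALSE, robust, TMM, filterByExpr by group) in R 4.3.3, R213G against WT without covariates, with Benjamini-Hochberg adjustment and a threshold of 0.05. The SE is the log2 fold change divided by the square root of F. Log2 CPM used a prior count of 2. Total counts were 33488569 to 35176210 per library, of which the mitochondrially encoded genes with deposited counts made up 1.55 to 1.76%. No pair of libraries agreed within sampling noise (chi-square per degree of freedom at least 18.3). The replicate numbers share no stated origin.

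Gene models, exonic lengths and coding sequences came from GENCODE vM21 (GRCm38), and 97.9% of tested symbols matched. Levels per kb use the exonic length, and the length of the coding transcript was added later. The script was tested on simulated data. The members and gene lists were chosen with earlier results of these data known. Genes were named by rule: in each complex the 2 of smallest p in each direction and the 2 of highest level per length, the paralog sets, the 2 of smallest p in each companion list, and check genes. Others (the factors Yy1, Nrf1 and Gabpa, genes with shown sequences or copies, and further examples) were chosen after their values were seen. Alternatives tried were upper-quartile scaling, library totals, DESeq2 size factors, testing without a filter or with a minimum mean of 5 CPM, edgeR legacy, DESeq2 1.42.0, limma 3.58.1 voom, a replicate block and leaving out each library. The values of 1 gene are not reported here.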

Additional observations from a re-analysis of the deposited data

How the results depend on the processing

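No member and no gene of the companion lists was called under any of the 13 alternatives planned. Over all tested genes 0 were called by edgeR (302 at an unadjusted p under 0.05), DESeq2 called 1 (Clrn2, counted 35 and 181 times in R213G and 0 times in WT, named after its value was seen), and leaving out 1 library gave 0 to 2, the 2 being Lars2 and Gm42418 without R213G replicate 2. The number of members above 0 ran from 29 (without R213G replicate 1) to 53 (without R213G replicate 2), and their median from -0.026 to 0.11. Among the 40 members without shared words it was 26, fewer because fewer genes were counted. The replicate block, which pairs libraries by number only, gave 0 called members, 46 members above 0 and a median of 0.067. Deviations of equally numbered libraries correlated at 0.093 over genes. With 1 library left out, the log2 fold change of 42 of the 73 members and of 45 of the 80 companion genes changed sign in at least 1 such fit. Among the genes named by rule these had lowest and highest values of -0.021 and 0.031 for Ndufa1, -0.060 and 0.35 for Uqcrc1, -0.37 and 0.24 for Uqcrb, -0.14 and 0.41 for Uqcr10, -0.075 and 0.014 for Cox8a, -0.043 and 0.36 for Cox6b1, -0.57 and 1.69 for Atp5g2, -0.022 and 0.13 for Cox6a1, -0.78 and 1.16 for Cox6a2, -0.055 and 1.62 for Cox6b2, -0.71 and 0.49 for Cox7a1, -0.0029 and 0.33 for Cox7b, -0.00086 and 0.62 for mt-Nd6 and -0.18 and 0.076 for mt-Nd5. The cause was not tested. A library left out leaves its genotype with 1 library, assumed to vary like the other group. Other scalings gave 12 to 14 members higher and 7 to 8 lower in both R213G libraries. The shares of all tested genes were computed only for the main scaling, with 13.7% higher and 15.2% lower. Depth limits Ndufb4 and Atp5g2 most, with 12 and 15 counts in their lowest libraries.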
